A study of Mus musculus with 28 samples.

Results

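The genes described here are 41 marker and effector genes of T cells and natural killer (NK) cells, measured by RNA sequencing of mouse lung. They were taken by symbol as the rows of the count table whose Ensembl identifier carries the symbol, and all 41 were found, 41 of the 35880 identifiers in the table. All 41 also passed the low-count filter and are among the 14887 genes tested. The T genes number 27 and the NK and cytotoxic genes 14. The rule itself uses no measured value, but the list was drawn up with earlier results of these data known.

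The lungs came from wild-type male C57BL/6 mice, an inbred laboratory strain, labelled as 8 to 12 weeks old, with 8 weeks given in the exposure protocol, and each library was made from the mRNA of a lung homogenate. The 8 groups are co-exposure to carbon black at 10 mg/m3 with ozone at 2 ppm, ozone alone at 2 ppm, carbon black alone at 10 mg/m3, and sham exposure, each at day 1 and at day 4. Carbon black is an aerosol of nearly pure carbon particles and ozone is an oxidant gas. An exposure lasted 3 hours. Day 1 groups had 1 exposure and 4 libraries each, and day 4 groups had 4 exposures and 3 libraries each, so day and number of exposures cannot be told apart. The labels do not say that each library is a separate mouse, so p-values refer to variation among the 28 libraries, part of which may be technical.

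T cells recognise peptides through a T cell receptor that signals through the CD3 chains, the kinases Lck and Zap70 and the adaptor Lat. NK cells carry no such rearranged receptor and kill through granules of perforin and granzymes under the control of activating and inhibitory surface receptors. Both cell types are found in the healthy mouse lung, a large part of them in its vessels. The division between the lists is not strict: cytotoxic T cells also make granzymes, perforin, Nkg7, Ccl5 and Il2rb, and NK cells also carry Cd2, Cd247 and Thy1. Among the NK genes, Ncr1, the activating receptor NKp46, is the most selective for NK cells and related innate lymphoid cells, and among the T genes Cd3e is a standard T cell marker.

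Every library held counts of these genes, but few. The libraries had totals between 5.14 M and 9.72 M, and the 41 genes together took between 0.0109% and 0.0342% of the estimated counts. Levels are in CPM, the usual unit of counts relative to sequencing depth, after TMM scaling, a correction for differences in library composition, so that 1 CPM stands for roughly 5.14 to 9.72 counts. The lowest count of any member in a library was 2, and the highest 356. Fold changes are given on the log2 scale with a standard error (SE) as the exposed group over sham of the same day, so that a negative value means a lower level in the exposed lungs. A gene is said to have fallen where its adjusted p was under 0.05 in edgeR.

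Promoter sequence shows which DNA elements stand upstream of these genes. RefSeq windows (build GRCm38.p6, from 250 bases before to 50 bases after a gene's start) are printed for members that fell in every comparison of ozone or co-exposure with sham: Cd3d (chr9:44981536-44981835, plus strand), a chain of the CD3 complex, Lck (chr4:129573592-129573891, minus strand), the kinase that starts receptor signalling, Gzma (chr13:113100932-113101231, minus strand), granzyme A, and Nkg7 (chr7:43436888-43437187, plus strand), a granule membrane protein. Each is written 5′ to 3′ along its gene's strand. Capitals mark matches, on either strand, to short motifs of factor families known in lymphocytes: TGTGGT (RUNX), CAGGAAG (ETS), GGTGTGA (T-box) and CTTTGA (TCF and LEF).
Cd3d: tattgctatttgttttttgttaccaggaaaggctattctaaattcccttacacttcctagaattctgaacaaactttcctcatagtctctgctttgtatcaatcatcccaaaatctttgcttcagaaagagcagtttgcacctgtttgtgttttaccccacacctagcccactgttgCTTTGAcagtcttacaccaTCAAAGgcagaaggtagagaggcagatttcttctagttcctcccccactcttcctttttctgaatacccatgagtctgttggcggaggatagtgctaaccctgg
Lck: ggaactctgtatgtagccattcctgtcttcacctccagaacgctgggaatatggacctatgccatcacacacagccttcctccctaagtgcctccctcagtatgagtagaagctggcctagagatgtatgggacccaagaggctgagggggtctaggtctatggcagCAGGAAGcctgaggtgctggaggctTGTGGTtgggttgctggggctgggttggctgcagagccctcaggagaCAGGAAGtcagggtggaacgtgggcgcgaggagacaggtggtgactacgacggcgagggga
Gzma: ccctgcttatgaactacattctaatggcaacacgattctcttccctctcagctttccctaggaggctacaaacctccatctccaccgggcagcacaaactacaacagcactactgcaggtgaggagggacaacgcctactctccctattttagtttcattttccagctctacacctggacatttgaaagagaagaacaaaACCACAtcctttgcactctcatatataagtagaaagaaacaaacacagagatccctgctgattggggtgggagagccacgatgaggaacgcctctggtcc
Nkg7: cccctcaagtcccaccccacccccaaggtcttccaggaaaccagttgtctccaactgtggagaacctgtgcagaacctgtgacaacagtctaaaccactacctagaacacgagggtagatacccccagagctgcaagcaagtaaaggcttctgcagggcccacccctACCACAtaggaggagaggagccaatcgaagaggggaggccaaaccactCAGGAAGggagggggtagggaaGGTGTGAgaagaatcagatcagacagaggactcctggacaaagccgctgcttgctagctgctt
Cd3d holds a pair of TCF and LEF letters facing each other, starting at -73 and -54 from the gene's start, and Lck holds ETS letters at -83 and -11 with RUNX letters at -58. Gzma holds RUNX letters at -50, and Nkg7 holds RUNX letters at -83, ETS letters at -35 and T-box letters at -13. Windows were given for 30 of the 41 members, 19 T and 11 NK genes, and where a gene has several windows the table's first was used. RUNX letters occurred in 8 of 11 NK windows (72.7%) and 4 of 19 T windows (21.1%), against 16.9% of the windows of all 27025 genes. ETS letters occurred in 3 of 11 NK windows and 7 of 19 T windows (27.3% and 36.8%), against 13% of all windows. TCF and LEF letters occurred in 1 NK window and 6 T windows, against 16.2% of all windows, and T-box letters in 1 NK window and no T window, against 3.96%. These are matches of letters in a short window and were not tested.

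Many T and NK genes were lower after ozone, alone or with carbon black, and none of the 41 passed the threshold after carbon black alone. At day 1, 31 of the 41 members fell after co-exposure and 22 after ozone. At day 4, 31 fell after co-exposure and 18 after ozone. In each of these 4 comparisons no member was higher past the threshold. The share of all 14887 genes that fell was 9.09% after co-exposure and 4.63% after ozone at day 1, and 16.3% after co-exposure and 9.07% after ozone at day 4. The share of all genes that rose was 10.1% after co-exposure and 6.81% after ozone at day 1, and 17.7% after co-exposure and 11.7% after ozone at day 4. Both exposures are set against the same sham libraries of their day, so the counts are not independent of each other. A homogenate averages over all its cells, so fewer T or NK cells and less of their RNA per cell cannot be told apart.

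Summed over the 27 T genes, the level was 106 ± 15 CPM after co-exposure and 117 ± 13 CPM after ozone at day 1, against 202 ± 26 CPM in sham lungs (SD, n = 4 each). At day 4 it was 104 ± 11 CPM after co-exposure and 130 ± 15 CPM after ozone, against 201 ± 15 CPM in sham lungs (SD, n = 3 each). The highest T sum of any co-exposed or ozone library was 147 CPM and the lowest of any sham library was 170 CPM, so the libraries did not overlap. The 14 NK genes summed to 35.1 ± 5.3 CPM after co-exposure and 45.2 ± 3.1 CPM after ozone at day 1, against 81.5 ± 17 CPM in sham lungs. At day 4 the NK sum was 34.5 ± 8.7 CPM after co-exposure and 40 ± 2.2 CPM after ozone, against 78.3 ± 7.9 CPM in sham lungs. No co-exposed or ozone library had an NK sum above 49.4 CPM, and no sham library one below 67.1 CPM.

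**Figure D1:**
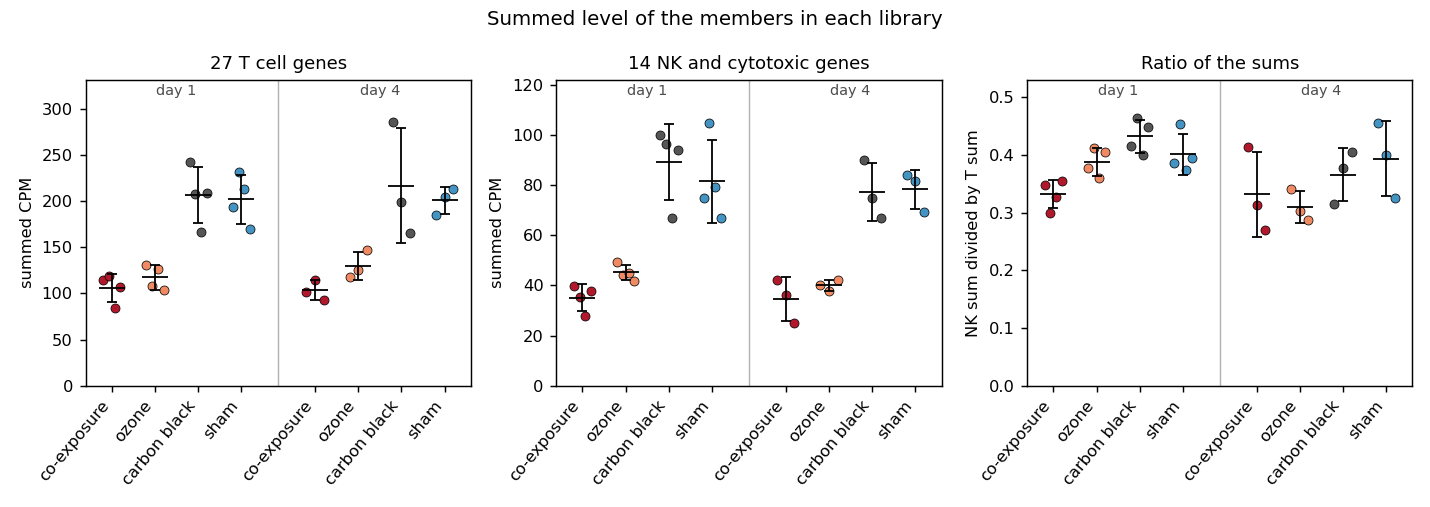
Summed CPM of the 27 T genes (left), of the 14 NK and cytotoxic genes (middle) and the NK sum divided by the T sum (right) in each of the 28 libraries, by exposure and day; points are libraries, the horizontal line is the mean and the bar is 1 SD (n = 4 at day 1, n = 3 at day 4). All co-exposed and ozone libraries lie at or below 147 CPM for T genes and 49.4 CPM for NK genes, and all sham libraries lie at or above 170 and 67.1 CPM.

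Set against each other, T and NK genes were both lower after ozone and after co-exposure. The T sum was 52.4% of sham after co-exposure and 57.9% after ozone at day 1, and the NK sum 43.1% and 55.4% for the same exposures. At day 4 the T sum was 51.6% of sham after co-exposure and 64.8% after ozone, and the NK sum 44% and 51.1%. By counts, 20 of 27 T and 11 of 14 NK genes fell after co-exposure at day 1, and 16 T and 6 NK genes after ozone. At day 4, 19 T and 12 NK genes fell after co-exposure, and 9 T and 9 NK genes after ozone.

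The medians of the log2 fold changes after co-exposure were -1.02 for T and -1.10 for NK genes at day 1, and -1.03 for T and -1.18 for NK genes at day 4. After ozone they were -0.98 for T and -0.88 for NK genes at day 1, and -0.72 for T and -1.05 for NK genes at day 4. The median of all genes tested lay between -0.01 and 0.01 in these comparisons. The ratio of the NK sum to the T sum was 0.332 ± 0.025 after co-exposure and 0.388 ± 0.024 after ozone at day 1, against 0.401 ± 0.036 in sham lungs. The co-exposed libraries spanned 0.299 to 0.354 and the sham libraries of day 1 spanned 0.373 to 0.453, without overlap, while the ozone libraries (0.359 to 0.411) overlapped the sham range. At day 4 the ratio was 0.331 ± 0.074 after co-exposure and 0.310 ± 0.028 after ozone, against 0.393 ± 0.065 in sham lungs, with overlap in both cases. Genes are not replicates, so the contrast of T with NK genes is a description with no test.

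The counts after ozone alone depended on single libraries. Without ozone replicate 4 of day 1 the count of that day was 12 in place of 22, with 9 T and 3 NK genes, and without sham replicate 3 it held 9 T genes in place of 16. In all, 4 libraries held more than 100 CPM of the skeletal muscle actin gene Acta1: sham replicate 2 (607 CPM) and ozone replicate 2 (269 CPM) of day 1, and carbon black replicate 3 (123 CPM) and co-exposed replicate 3 (215 CPM) of day 4. Without those 4 libraries, an alternative added after seeing the data, the counts were 27 after co-exposure and 9 after ozone at day 1 (7 T and 2 NK genes), and 21 after co-exposure and 18 after ozone at day 4. The day 4 ozone count of 18 was 8 without ozone replicate 1 (3 T and 5 NK genes) and 11 without ozone replicate 2 (3 T genes), and it held 4 T genes in place of 9 without sham replicate 3. After co-exposure at day 4, NK genes numbered 6 in place of 12 without co-exposed replicate 3, also 6 without the libraries high in Acta1, and also 6 when the fit was limited to the co-exposed and sham libraries of that day. Among the NK medians, that of ozone at day 1 was -0.69 without the libraries high in Acta1. That of co-exposure at day 4 was -1.37 without co-exposed replicate 1 and -0.96 without co-exposed replicate 3.

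**Figure D2:**
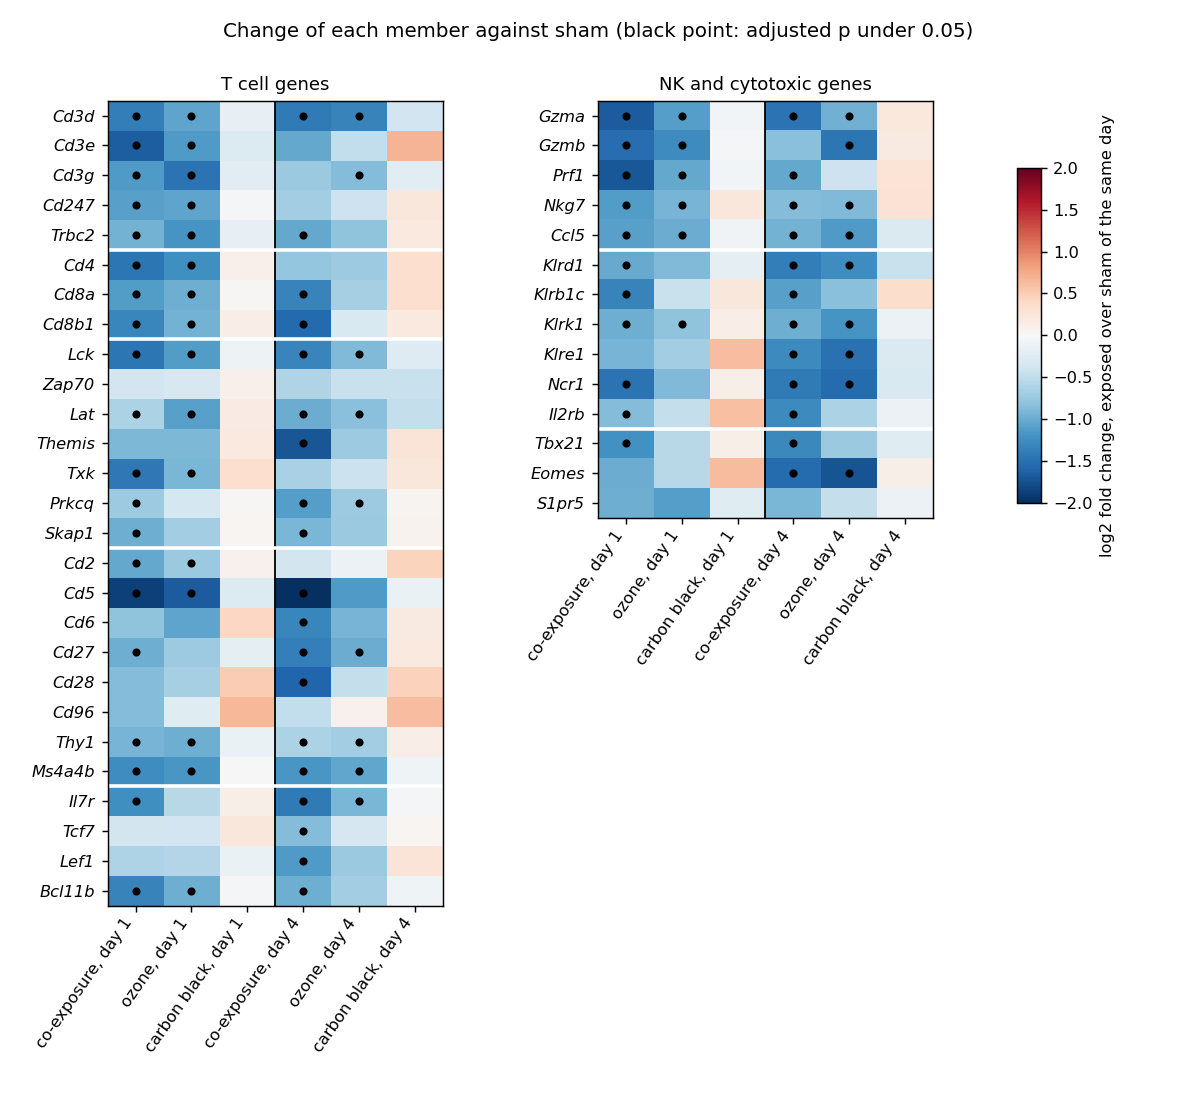
Log2 fold change over sham of the same day for each of the 27 T genes (left) and 14 NK and cytotoxic genes (right), in co-exposed, ozone and carbon black lungs at day 1 and day 4; blue is lower in exposed lungs, red higher, white lines separate the roles of the genes and a black point marks an adjusted p under 0.05. Points fill 31, 22, 31 and 18 of 41 cells in the columns of co-exposure day 1, ozone day 1, co-exposure day 4 and ozone day 4, and none in the carbon black columns.

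Of the 5 genes of the T cell receptor complex (Cd3d, Cd3e, Cd3g, Cd247 and Trbc2) 5 fell after co-exposure and 5 after ozone at day 1, and 2 after co-exposure and 2 after ozone at day 4. At day 1, Cd3d had 1.31, 1.82, 1.41 and 2.14 CPM in the co-exposed libraries and 2.02, 1.65, 2.21 and 2.52 CPM in the ozone libraries, against 3.7, 5.64, 3.97 and 4.17 CPM in the sham libraries. Cd3d measured 2, 1.99 and 1.44 CPM after co-exposure and 1.99, 1.47 and 2.3 CPM after ozone at day 4, against 4.33, 4.3 and 5.8 CPM in sham lungs. All co-exposed and ozone libraries of Cd3d lay below all sham libraries of their day. Its log2 fold change was -1.38 ± 0.26 after co-exposure and -1.05 ± 0.25 after ozone at day 1, and -1.41 ± 0.29 and -1.34 ± 0.29 for the same exposures at day 4.

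Cd3e encodes the CD3 epsilon chain. Cd3e stood at 2.76, 2.12, 1.13 and 1.57 CPM in co-exposed lungs of day 1 and at 4.05, 1.18, 3.6 and 2.24 CPM in ozone lungs, against 5.29, 7.27, 5.89 and 5.52 CPM in sham lungs. At day 4, Cd3e had 2.4, 1.7 and 1.73 CPM in the co-exposed libraries and 2.56, 2.6 and 3.31 CPM in the ozone libraries, against 3.01, 4.76 and 4.19 CPM in the sham libraries. The groups did not overlap at day 1 nor after co-exposure at day 4, but an ozone library of day 4 lay inside the sham range, and all sham libraries of day 4 lay below all sham libraries of day 1. Cd3e fell by 1.65 ± 0.38 after co-exposure and by 1.13 ± 0.36 after ozone at day 1 on the log2 scale. At day 4 its values were -1.02 ± 0.44 after co-exposure and -0.49 ± 0.42 after ozone, with adjusted p of 0.0712 and 0.436 in edgeR. With the replicate number as a block in the fit of all libraries, Cd3e passed after co-exposure at day 4, at -1.07 with an edgeR adjusted p of 0.0482. Every same-numbered pair correlated over 0.1 only between co-exposed and sham libraries of day 4. For the other groups that block joins libraries by number, where a pairing is not established. Cd3e also passed with the fit limited to the co-exposed and sham libraries of day 4. It had -1.03 without a block (edgeR adjusted p = 0.0467) and -1.02 with a block (edgeR adjusted p = 0.0403). The day 1 ozone call of Cd3e was lost when any of sham replicates 1 to 4 or ozone replicate 2 or 4 was left out, with adjusted p between 0.0546 and 0.135 in edgeR. Without the libraries high in Acta1 it was also lost, at -0.76 with an edgeR adjusted p of 0.198.

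Cd3g measured 3.81, 2.27, 2.12 and 1.71 CPM after co-exposure and 1.86, 1.53, 2.91 and 1.54 CPM after ozone at day 1, against 7.41, 5.04, 6.28 and 3.19 CPM in sham lungs. Cd3g stood at 2.67, 2.56 and 3.31 CPM in co-exposed lungs of day 4 and at 2.41, 2.82 and 2.59 CPM in ozone lungs, against 3.85, 5.38 and 5.05 CPM in sham lungs. Co-exposed and sham libraries of Cd3g overlapped at day 1, and the other groups did not. Cd3g, the CD3 gamma chain, fell by 1.13 ± 0.27 after co-exposure and by 1.48 ± 0.28 after ozone at day 1, and by 0.86 ± 0.31 after ozone at day 4. Its value after co-exposure at day 4 was -0.74 ± 0.31, which did not pass although the libraries did not overlap. With the replicate block over all libraries Cd3g passed at -0.74 with an edgeR adjusted p of 0.0381. Cd247, the CD3 zeta chain, fell by 1.08 ± 0.30 after co-exposure and by 1.06 ± 0.30 after ozone at day 1, and had -0.70 ± 0.33 and -0.42 ± 0.33 at day 4. Trbc2, a constant region of the receptor beta chain, fell by 0.94 ± 0.28 after co-exposure and by 1.18 ± 0.28 after ozone at day 1 and by 1.03 ± 0.32 after co-exposure at day 4. Its sequence is close to that of Trbc1, so the split of reads between these genes is uncertain.

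The coreceptor genes, whose proteins bind the MHC molecule beside the receptor, fell at day 1. Of Cd4, Cd8a and Cd8b1, 3 of 3 fell after co-exposure and 3 of 3 after ozone at day 1. At day 4, Cd8a (-1.34 ± 0.38) and Cd8b1 (-1.55 ± 0.39) fell after co-exposure, Cd4 had -0.77 ± 0.35, and none of them passed after ozone (-0.67 ± 0.36 for Cd8a, -0.31 ± 0.35 for Cd8b1 and -0.73 ± 0.35 for Cd4), where 1 had an unadjusted p under 0.05 in edgeR. The day 1 values after co-exposure were -1.44 ± 0.32 for Cd4, -1.12 ± 0.33 for Cd8a and -1.31 ± 0.33 for Cd8b1. After ozone at day 1 they were -1.22 ± 0.31 for Cd4, -0.98 ± 0.32 for Cd8a and -0.95 ± 0.32 for Cd8b1.

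Of the 7 genes of receptor signalling 5 fell after co-exposure and 3 after ozone at day 1, and again 5 after co-exposure and 3 after ozone at day 4. At day 1, Lck had 3.94, 5.61, 2.54 and 3.85 CPM in the co-exposed libraries and 5.74, 3.3, 6.78 and 4.2 CPM in the ozone libraries, against 10.8, 13.8, 9.86 and 8.71 CPM in the sham libraries. Lck stood at 3.2, 6.25 and 4.17 CPM in co-exposed lungs of day 4 and at 6.11, 5.98 and 6.47 CPM in ozone lungs, against 9.62, 12.1 and 12.4 CPM in sham lungs. No exposed library of Lck reached the lowest sham library. Lck fell by 1.44 ± 0.25 after co-exposure and by 1.11 ± 0.25 after ozone at day 1, and by 1.32 ± 0.28 and 0.88 ± 0.28 for the same exposures at day 4. The day 1 ozone value of Lck was -0.81 without the libraries high in Acta1, with an edgeR adjusted p of 0.0682.

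Prkcq encodes protein kinase C theta of the T cell synapse. Prkcq measured 7.48, 8.94, 6.91 and 8.12 CPM after co-exposure and 11.6, 10.7, 9.82 and 8.55 CPM after ozone at day 1, against 13.1, 16.2, 10.9 and 12 CPM in sham lungs. At day 4, Prkcq had 6.41, 5.54 and 6.05 CPM in the co-exposed libraries and 7.67, 6.43 and 9.49 CPM in the ozone libraries, against 16.1, 11.5 and 11 CPM in the sham libraries. Ozone libraries of day 1 overlapped the sham range, and the other exposed groups did not. Prkcq fell by 0.73 ± 0.15 after co-exposure at day 1, and by 1.10 ± 0.18 after co-exposure and 0.72 ± 0.17 after ozone at day 4, while its value after ozone at day 1 was -0.35 ± 0.15.

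The adaptor Lat fell in all 4 comparisons, by 0.63 ± 0.22 after co-exposure and 1.08 ± 0.22 after ozone at day 1 and by 0.99 ± 0.25 after co-exposure and 0.84 ± 0.25 after ozone at day 4. Lat stood at 3.68, 3.33, 4.09 and 3.99 CPM in co-exposed lungs of day 1 and at 3.21, 2.6, 2.63 and 2.66 CPM in ozone lungs, against 4.5, 5.78, 7.43 and 5.64 CPM in sham lungs. Lat measured 2.54, 4.12 and 3.74 CPM after co-exposure and 2.98, 3.39 and 5.17 CPM after ozone at day 4, against 4.33, 8.76 and 7.63 CPM in sham lungs. Only the ozone libraries of day 4 overlapped the sham range. That call of Lat was lost without sham replicate 2 or 3 or ozone replicate 1 or 2 of day 4, with edgeR adjusted p between 0.0674 and 0.0948. With the fit limited to the groups compared, Lat lost both day 4 calls. The edgeR adjusted p was then 0.0542 after co-exposure and 0.05 after ozone. Zap70, the kinase that docks on the CD3 chains, did not pass in any of the 4 comparisons, with values from -0.60 ± 0.26 after co-exposure at day 4 to -0.32 ± 0.23 after ozone at day 1. Txk, a Tec family kinase, fell after co-exposure (-1.43 ± 0.31) and ozone (-0.92 ± 0.30) at day 1. The adaptor Skap1 fell after co-exposure at day 1 (-0.97 ± 0.24) and day 4 (-0.92 ± 0.29), with an edgeR adjusted p of 0.0661 at day 4 in a blocked fit of the co-exposed and sham libraries alone. Themis, needed for T cell development in the thymus, fell after co-exposure at day 4 (-1.71 ± 0.54), from 5, 6 and 3 counts in the co-exposed libraries.

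Of the 8 surface genes 5 fell after co-exposure and 4 after ozone at day 1, and 6 after co-exposure and 3 after ozone at day 4. At day 1, Thy1 had 8.53, 7.58, 6.35 and 10.3 CPM in the co-exposed libraries and 7.59, 7.43, 8.58 and 7.99 CPM in the ozone libraries, against 15.9, 17.8, 16.1 and 12.8 CPM in the sham libraries. Thy1 measured 9.07, 12.4 and 10.1 CPM after co-exposure and 9.09, 9.48 and 11.4 CPM after ozone at day 4, against 14.7, 16.3 and 17.6 CPM in sham lungs. Thy1, a glycoprotein of the T cell membrane that other lung cells also carry, was lower in each exposed library than in any sham library of its day. It fell by 0.93 ± 0.18 after co-exposure and 0.98 ± 0.18 after ozone at day 1, and by 0.63 ± 0.20 after co-exposure and 0.70 ± 0.20 after ozone at day 4. Ms4a4b stood at 7.22, 6.36, 5.92 and 6.55 CPM in co-exposed lungs of day 1 and at 8.44, 6.14, 9.41 and 3.92 CPM in ozone lungs, against 13.2, 17.1, 18.2 and 13.6 CPM in sham lungs. Ms4a4b measured 5.74, 9.09 and 5.61 CPM after co-exposure and 6.39, 6.43 and 9.49 CPM after ozone at day 4, against 11.9, 17.8 and 16 CPM in sham lungs. Ms4a4b, a membrane protein of T cells, likewise showed no overlap, and fell by 1.25 ± 0.24 and 1.16 ± 0.23 at day 1 and by 1.16 ± 0.27 and 1.04 ± 0.27 at day 4, in each case after co-exposure first and ozone next.

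Cd2, an adhesion receptor that T and NK cells share, fell at day 1 and did not pass at day 4. At day 1, Cd2 had 10.6, 9.24, 7.62 and 6.98 CPM in the co-exposed libraries and 9.95, 13.8, 10.8 and 7.15 CPM in the ozone libraries, against 19, 19.4, 17.8 and 14.1 CPM in the sham libraries. Cd2 stood at 12.1, 16.2 and 11.8 CPM in co-exposed lungs of day 4 and at 16.2, 14.1 and 17.5 CPM in ozone lungs, against 18.6, 18.7 and 14.5 CPM in sham lungs. The day 1 groups did not overlap, and at day 4 exposed and sham values ran through each other. Its log2 fold changes were -1.02 ± 0.19 after co-exposure and -0.75 ± 0.19 after ozone at day 1, and -0.37 ± 0.22 and -0.12 ± 0.21 at day 4. Cd5, an inhibitor of receptor signalling, fell by 2.00 ± 0.55 after co-exposure at day 4, the most negative log2 value of the 27 T genes in the 4 comparisons. That value rests on 6, 3 and 3 counts in the co-exposed libraries. Cd5 also fell by 1.87 ± 0.44 after co-exposure and 1.66 ± 0.43 after ozone at day 1, and had -1.13 ± 0.48 after ozone at day 4. The costimulatory receptor Cd27 fell by 0.98 ± 0.27 after co-exposure at day 1, and by 1.37 ± 0.32 after co-exposure and 1.00 ± 0.31 after ozone at day 4. Cd28 (-1.59 ± 0.40) and Cd6 (-1.31 ± 0.44) fell after co-exposure at day 4 only among the 4 comparisons by this threshold. Cd96, an adhesion receptor of T and NK cells with as few as 2 counts in a library, passed in none, at -0.86 ± 0.48 after co-exposure and -0.24 ± 0.45 after ozone at day 1, and -0.50 ± 0.54 and 0.09 ± 0.50 at day 4.

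Of the 4 genes of naive and memory T cells and T lineage transcription factors, 2 fell after co-exposure and 1 after ozone at day 1, and 4 after co-exposure and 1 after ozone at day 4. Il7r measured 5.91, 5.15, 3.95 and 5.84 CPM after co-exposure and 11.1, 6.73, 7.75 and 8.13 CPM after ozone at day 1, against 11, 16.8, 11 and 10.6 CPM in sham lungs. At day 4, Il7r had 4, 6.11 and 3.02 CPM in the co-exposed libraries and 4.97, 5.64 and 8.19 CPM in the ozone libraries, against 9.02, 13.1 and 13.2 CPM in the sham libraries. Il7r, the interleukin 7 receptor that keeps resting T cells alive, overlapped sham in the ozone libraries of day 1 only. It fell by 1.23 ± 0.23 after co-exposure at day 1 and by 1.42 ± 0.27 after co-exposure and 0.91 ± 0.26 after ozone at day 4, and had -0.55 ± 0.22 after ozone at day 1. The day 4 ozone call of Il7r was lost without sham replicate 3 or ozone replicate 1 or 2, with edgeR adjusted p between 0.0604 and 0.0739.

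Tcf7 stood at 21.3, 26.1, 17.1 and 22.9 CPM in co-exposed lungs of day 1 and at 26, 16.4, 21 and 23 CPM in ozone lungs, against 28.7, 29.2, 29.3 and 25.4 CPM in sham lungs. Tcf7 measured 20, 13.9 and 13.2 CPM after co-exposure and 19.3, 24.5 and 24.4 CPM after ozone at day 4, against 27.3, 28.6 and 30.5 CPM in sham lungs. At day 1 the groups of Tcf7, which encodes the transcription factor TCF-1 of naive and memory T cells, overlapped, and at day 4 they did not. Tcf7 fell by 0.87 ± 0.18 after co-exposure at day 4 and had -0.34 ± 0.18 after ozone, with -0.37 ± 0.15 and -0.39 ± 0.15 for the same exposures at day 1. Its relative Lef1 fell after co-exposure at day 4 (-1.14 ± 0.29) and had values from -0.75 to -0.58 in the other comparisons. Bcl11b, which sets T cell identity, fell after co-exposure at day 1 (-1.33 ± 0.29) and day 4 (-0.98 ± 0.31) and after ozone at day 1 (-0.98 ± 0.28), with -0.69 ± 0.31 after ozone at day 4.

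Among the NK and cytotoxic genes, the effector molecules fell in nearly every comparison. Of these 5 genes 5 fell after co-exposure and 5 after ozone at day 1, and 4 after co-exposure and 4 after ozone at day 4. At day 1, Ccl5 had 5.78, 5.76, 5.36 and 7.27 CPM in the co-exposed libraries and 7.59, 5.9, 5.53 and 6.87 CPM in the ozone libraries, against 12.2, 16.5, 11.9 and 11.2 CPM in the sham libraries. Ccl5 stood at 6.01, 6.82 and 5.04 CPM in co-exposed lungs of day 4 and at 4.97, 4.4 and 6.32 CPM in ozone lungs, against 11.8, 11.1 and 11.5 CPM in sham lungs. Ccl5, a chemokine that cytotoxic T and NK cells store and release (ENSMUSG00000035042, chr11:83525778-83530518), showed no overlap at either day. It fell by 1.09 ± 0.16 after co-exposure and 1.00 ± 0.16 after ozone at day 1, with edgeR adjusted p of 3.74e-05 and 0.000186. At day 4 it fell by 0.94 ± 0.19 after co-exposure and 1.13 ± 0.19 after ozone, with edgeR adjusted p of 0.000351 and 9.14e-05.

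Gzma measured 5.12, 5.3, 3.39 and 5.41 CPM after co-exposure and 6.24, 6.96, 8.03 and 7.01 CPM after ozone at day 1, against 14, 19, 16.1 and 11.8 CPM in sham lungs. At day 4, Gzma had 7.47, 4.12 and 3.31 CPM in the co-exposed libraries and 6.25, 7.11 and 8.05 CPM in the ozone libraries, against 18, 10.9 and 12.6 CPM in the sham libraries. Gzma, a granule protease, was also free of overlap, and co-exposed replicate 3 was the lowest library at both days. It fell by 1.66 ± 0.25 after co-exposure and 1.10 ± 0.24 after ozone at day 1, and by 1.47 ± 0.28 after co-exposure and 0.96 ± 0.27 after ozone at day 4.

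Prf1 stood at 2.1, 1.82, 1.55 and 1.85 CPM in co-exposed lungs of day 1 and at 3.88, 2.48, 3.18 and 2.24 CPM in ozone lungs, against 6.88, 8.31, 4.87 and 3.93 CPM in sham lungs. Prf1 measured 2.67, 1.56 and 1.01 CPM after co-exposure and 3.12, 1.69 and 3.31 CPM after ozone at day 4, against 4.57, 3.38 and 2.79 CPM in sham lungs. Prf1, the pore-forming perforin, fell by 1.69 ± 0.31 after co-exposure and 1.03 ± 0.29 after ozone at day 1 and by 1.02 ± 0.37 after co-exposure at day 4. After ozone at day 4 it had -0.42 ± 0.35, with exposed libraries inside the sham range. The sham libraries of Prf1 ranged from 3.93 to 8.31 CPM at day 1 and from 2.79 to 4.57 CPM at day 4. At day 1, Nkg7 had 2.36, 2.42, 1.83 and 2.42 CPM in the co-exposed libraries and 2.53, 2.83, 3.32 and 1.54 CPM in the ozone libraries, against 4.23, 6.82, 4.61 and 4.05 CPM in the sham libraries. Nkg7 stood at 2.67, 2.56 and 1.58 CPM in co-exposed lungs of day 4 and at 1.56, 2.82 and 2.3 CPM in ozone lungs, against 4.33, 3.69 and 4.4 CPM in sham lungs. Nkg7 showed no overlap and fell by 1.11 ± 0.24 after co-exposure and 0.93 ± 0.23 after ozone at day 1, and by 0.86 ± 0.28 after co-exposure and 0.88 ± 0.27 after ozone at day 4. The day 1 ozone call of Nkg7 was lost without sham replicate 2 (edgeR adjusted p = 0.0506), without ozone replicate 4 and without the libraries high in Acta1 (edgeR adjusted p = 0.0538 in both). Its day 4 co-exposure call was lost in a blocked fit of the co-exposed and sham libraries alone, at -0.89 with an edgeR adjusted p of 0.0522.

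Gzmb, granzyme B of activated cytotoxic cells, fell by 1.53 ± 0.34 after co-exposure and 1.26 ± 0.33 after ozone at day 1 and by 1.45 ± 0.42 after ozone at day 4, and had -0.83 ± 0.39 after co-exposure at day 4. Gzmb measured 1.44, 1.06, 1.55 and 1.14 CPM after co-exposure and 2.19, 1.53, 1.25 and 1.4 CPM after ozone at day 1, against 2.91, 5.04, 3.33 and 3.93 CPM in sham lungs. Gzmb stood at 1.07, 1.56 and 1.73 CPM in co-exposed lungs of day 4 and at 1.14, 0.452 and 1.29 CPM in ozone lungs, against 2.65, 3.84 and 1.4 CPM in sham lungs. Sham replicate 3 of day 4, at 1.4 CPM, lay inside the range of the co-exposed libraries and close above the highest ozone library. The day 1 ozone call of Gzmb was lost without the libraries high in Acta1 (edgeR adjusted p = 0.0734), and the day 4 ozone call without sham replicate 2 (edgeR adjusted p = 0.0871) or ozone replicate 2 (edgeR adjusted p = 0.0976).

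**Figure D3:**
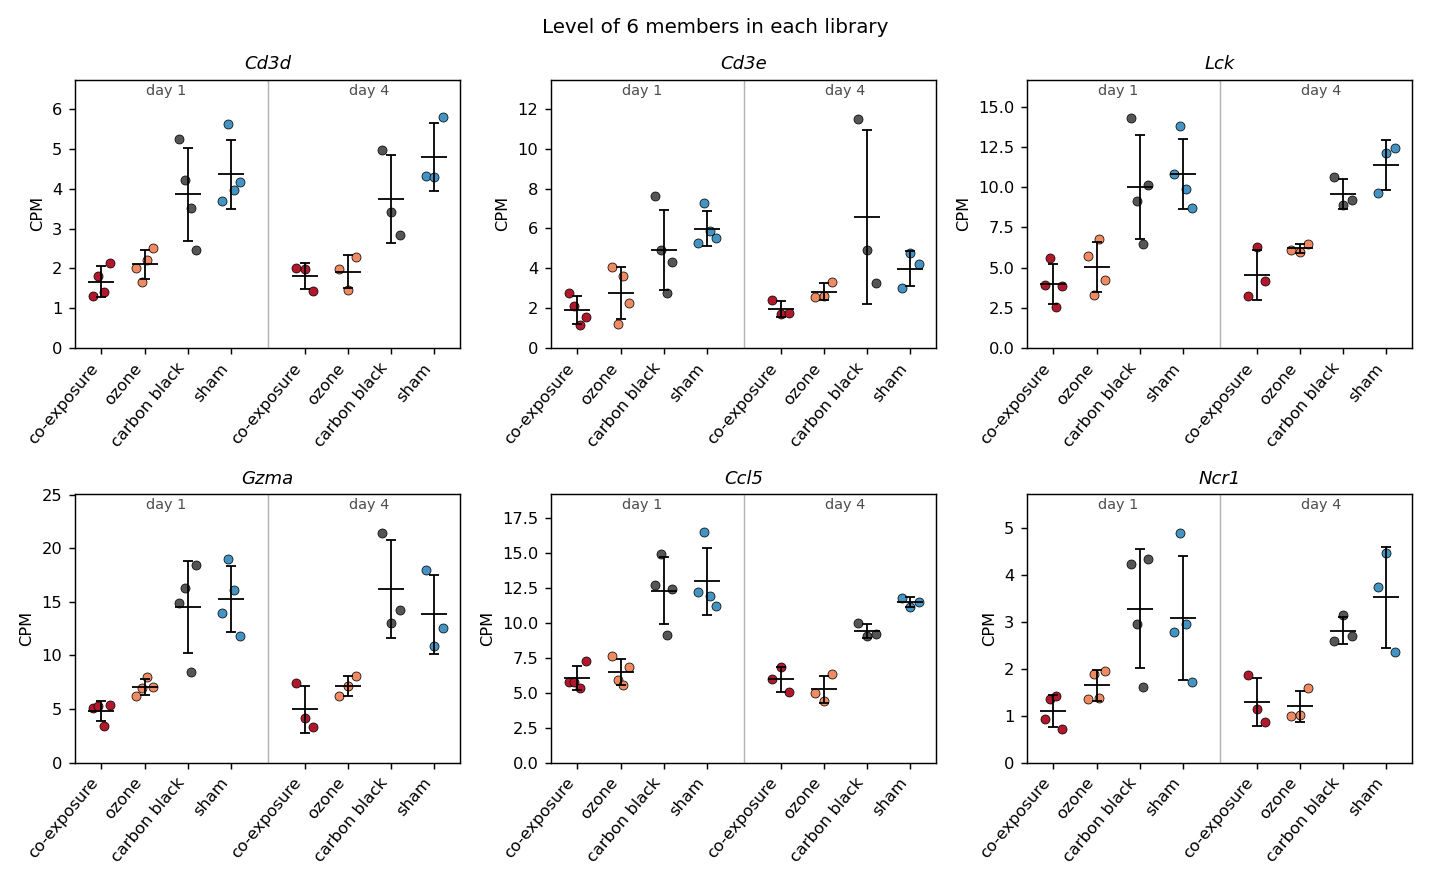
CPM of the T genes Cd3d, Cd3e and Lck (top) and of Gzma, Ccl5 and Ncr1 (bottom) in each library, by exposure and day; points are libraries, the horizontal line is the mean and the bar is 1 SD (n = 4 at day 1, n = 3 at day 4). Carbon black and sham libraries of the same day overlap in every panel but Ccl5 at day 4, and the co-exposed and ozone libraries of Cd3d, Lck, Gzma and Ccl5 lie below every sham library of their day.

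Of the 6 NK receptor genes 5 fell after co-exposure and 1 after ozone at day 1, and 6 after co-exposure and 4 after ozone at day 4. At day 1, Ncr1 had 0.919, 1.36, 1.41 and 0.712 CPM in the co-exposed libraries and 1.35, 1.89, 1.38 and 1.96 CPM in the ozone libraries, against 2.78, 4.89, 2.95 and 1.72 CPM in the sham libraries. Ncr1 measured 1.87, 1.14 and 0.864 CPM after co-exposure and 0.994, 1.02 and 1.58 CPM after ozone at day 4, against 3.73, 4.46 and 2.36 CPM in sham lungs. At day 1 the ozone libraries overlapped the lowest sham library, replicate 4 at 1.72 CPM, and the other groups did not overlap. Ncr1 fell by 1.47 ± 0.36 after co-exposure at day 1 and by 1.42 ± 0.40 after co-exposure and 1.54 ± 0.40 after ozone at day 4. Its value after ozone at day 1 was -0.88 ± 0.34 with an edgeR adjusted p of 0.0903, and -1.08 with an edgeR adjusted p of 0.0403 without sham replicate 4.

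Klrk1 stood at 3.02, 3.03, 2.26 and 3.56 CPM in co-exposed lungs of day 1 and at 4.56, 2.83, 3.04 and 2.94 CPM in ozone lungs, against 5.82, 6.67, 5.64 and 5.28 CPM in sham lungs. At day 4, Klrk1 had 3.87, 3.27 and 2.59 CPM in the co-exposed libraries and 2.56, 2.71 and 3.16 CPM in the ozone libraries, against 5.17, 7.99 and 6.12 CPM in the sham libraries. Klrk1, the activating receptor NKG2D, fell without overlap in all 4 comparisons, by 0.97 ± 0.22 after co-exposure and 0.81 ± 0.22 after ozone at day 1 and by 0.97 ± 0.25 after co-exposure and 1.18 ± 0.25 after ozone at day 4. Its day 1 ozone call was lost without ozone replicate 2 (edgeR adjusted p = 0.0519), ozone replicate 4 (edgeR adjusted p = 0.0595) or the libraries high in Acta1 (edgeR adjusted p = 0.0861). Il2rb measured 10.6, 9.09, 3.67 and 4.42 CPM after co-exposure and 9.95, 9.44, 8.99 and 8.27 CPM after ozone at day 1, against 12.4, 14.5, 13.2 and 10.8 CPM in sham lungs. Il2rb stood at 7.61, 4.54 and 2.73 CPM in co-exposed lungs of day 4 and at 9.09, 7.11 and 7.33 CPM in ozone lungs, against 11.4, 12.3 and 12.7 CPM in sham lungs. Il2rb, the shared beta chain of the interleukin 2 and interleukin 15 receptors, fell by 0.87 ± 0.25 after co-exposure at day 1 and by 1.28 ± 0.30 at day 4. After ozone it had -0.47 ± 0.24 at day 1 and -0.63 ± 0.28 at day 4, although no ozone library reached the sham range.

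Klrd1, the CD94 chain of NK receptors, fell by 1.01 ± 0.31 after co-exposure at day 1 and by 1.39 ± 0.35 after co-exposure and 1.25 ± 0.34 after ozone at day 4, where the ozone call was lost without ozone replicate 1 (edgeR adjusted p = 0.0501). Klrb1c, the NK1.1 antigen of C57BL/6 mice, fell by 1.33 ± 0.31 after co-exposure at day 1 and by 1.08 ± 0.35 at day 4. Klre1, an NK receptor of the lectin family, fell at day 4 after co-exposure (-1.27 ± 0.44) and ozone (-1.49 ± 0.45), from few counts, and had -0.93 ± 0.41 and -0.69 ± 0.40 at day 1.

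Of the NK transcription and trafficking genes, 1 of 3 fell after co-exposure and none after ozone at day 1 in edgeR, where 1 had an unadjusted p under 0.05, and 2 fell after co-exposure and 1 after ozone at day 4. Eomes, a T-box factor of NK cells, fell by 1.54 ± 0.54 after co-exposure and 1.73 ± 0.55 after ozone at day 4. Its counts were 5, 9 and 3 in those co-exposed libraries and 5, 8 and 3 in the ozone libraries. Tbx21, which encodes the T-box factor T-bet, fell by 1.21 ± 0.43 after co-exposure at day 1 and by 1.29 ± 0.48 at day 4. S1pr5, a receptor that guides NK cells out of tissue, did not pass in any of the 4 comparisons, with values from -1.10 ± 0.40 after ozone at day 1 to -0.47 ± 0.44 after ozone at day 4. Over the 4 comparisons, 9 members fell in all of them (Ccl5, Cd3d, Gzma, Klrk1, Lat, Lck, Ms4a4b, Nkg7 and Thy1) and 3 in none (Cd96, S1pr5 and Zap70).

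Genes of other cells moved in the same libraries. B cell genes fell as well: of 11, 9 after co-exposure and 4 after ozone at day 1, and 11 after co-exposure and 4 after ozone at day 4, with medians of -1.21, -0.90, -1.40 and -0.97. Their summed level was 59.5 to 99.4 CPM in co-exposed and 72.6 to 129 CPM in ozone libraries at day 1, against 95 to 365 CPM in sham libraries. The 365 CPM were those of sham replicate 2, high in Acta1, and the next sham library had 175 CPM. At day 4 the B cell sum was 79.4 to 121 CPM in co-exposed and 110 to 149 CPM in ozone libraries, against 184 to 288 CPM in sham libraries. Of 5 genes carried by all white blood cells, 5 fell after co-exposure and 2 after ozone at day 1, and none at day 4, with medians of -0.83, -0.64, 0.12 and 0.03; at day 4, 0 of them had an unadjusted p under 0.05 in edgeR after either exposure. Ptprc, the CD45 antigen, was at 36.1 to 58.2 CPM in co-exposed and 60.3 to 82.5 CPM in ozone libraries at day 1, against 80.6 to 184 CPM in sham libraries. Sham replicate 2 again held the highest value, and the next sham library had 98.5 CPM. At day 4 Ptprc was at 57.1 to 95.4 CPM in co-exposed and 98.8 to 104 CPM in ozone libraries, against 93.7 to 106 CPM in sham libraries.

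Endothelial genes fell too, 4 of 5 after co-exposure and 3 after ozone at day 1, and 5 after co-exposure and 4 after ozone at day 4, with medians of -0.58, -0.43, -1.11 and -0.61. Red cell genes, which mark blood in the tissue, passed in none of 7 after co-exposure or ozone at day 1 (0 of 7 also at an unadjusted p under 0.05 in edgeR). At day 4, 6 of 7 fell after co-exposure and 5 after ozone, with medians of -2.09 and -1.53. Their summed level at day 4 was 3964 to 6911 CPM in co-exposed and 5041 to 9047 CPM in ozone libraries, against 11142 to 30569 CPM in sham libraries. Sham libraries averaged 21263 CPM at day 4 and 11123 CPM at day 1 (9675 to 12657 CPM). Hba-a1, of this list, had 1.14 ± 0.32 between the sham groups, with an edgeR adjusted p of 0.502. The day 4 falls are measured against that higher sham level. Co-exposed and ozone libraries of day 4 also lay below the day 1 sham range. The thymus genes Rag1 and Rag2 had at most 0.216 CPM and 0 CPM in any library, and the lymph node vessel genes Glycam1 and Madcam1 at most 0.859 and 0.216 CPM. Cxcl13, a chemokine of B cell follicles from the same lymph node list, was present and uneven. At day 1 it ran from 1.58 to 12.3 CPM in co-exposed and 2.08 to 23.1 CPM in ozone libraries, against 1.35 to 47.6 CPM in sham libraries. At day 4 it ran from 1.85 to 21.9 CPM in co-exposed and 1.14 to 2.01 CPM in ozone libraries, against 1.23 to 45.9 CPM in sham libraries. The values of 47.6, 23.1 and 21.9 CPM came from libraries high in Acta1, and that of 45.9 CPM did not. The sham library next to 47.6 CPM had 6.75 CPM. The part of B cells, lymphoid tissue, leukocyte number, blood and vessels in the fall of T and NK genes was not tested.

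**Figure D4:**
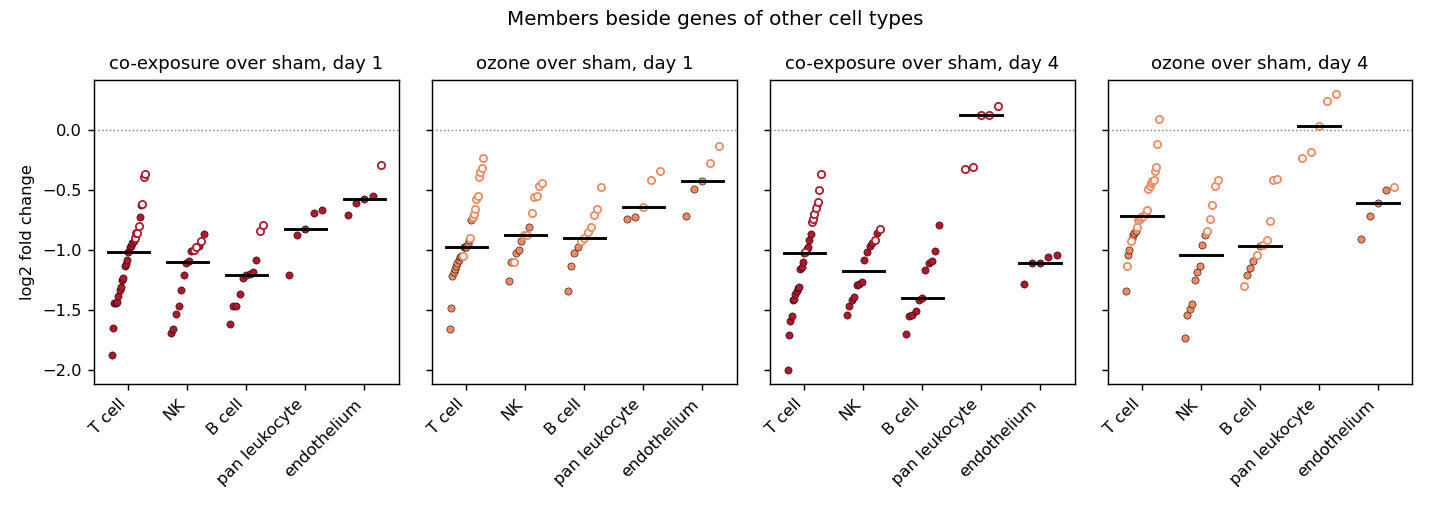
Log2 fold change over sham of T genes (27), NK and cytotoxic genes (14), B cell genes (11), pan-leukocyte genes (5) and endothelial genes (5) after co-exposure and after ozone at day 1 and day 4; each point is a gene, filled where its adjusted p was under 0.05, and the line is the list's median. T, NK and B cell medians lie between -1.40 and -0.72 in every panel, and the pan-leukocyte medians lie near 0 at day 4.

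T and NK genes outside the 41 followed in part. Of 16 tested further T genes 10 fell after co-exposure and 5 after ozone at day 1, and 8 after co-exposure and 4 after ozone at day 4, with none higher. Of 17 tested further NK genes 7 fell after co-exposure and 2 after ozone at day 1, and 5 after co-exposure and 3 after ozone at day 4. The mean sum of the 20 listed further NK genes was 179 CPM after co-exposure and 207 CPM after ozone at day 1, against 245 CPM in sham. At day 4 it was 222 CPM after co-exposure and 226 CPM after ozone, against 222 CPM in sham. The 20 listed further T genes had a mean sum of 117 and 134 CPM for the same exposures at day 1, against 229 CPM in sham. At day 4 they had 157 and 169 CPM, against 228 CPM in sham. Both sums hold genes that myeloid cells also carry, such as Lcp2 for T and Tyrobp for NK. Neither sum is therefore a measure of T or NK genes alone. Over all genes, 9.09% fell after co-exposure and 4.63% after ozone at day 1, and 16.3% and 9.07% at day 4. Ctsw, a protease of cytotoxic cells, fell in all 4 comparisons, by 0.92 ± 0.27 and 1.21 ± 0.27 at day 1 and by 1.38 ± 0.31 and 0.97 ± 0.30 at day 4 after co-exposure and ozone. Serpinb9b, a granzyme inhibitor of the serpin family, rose after co-exposure at day 1 (1.47 ± 0.38) and after co-exposure (2.87 ± 0.45) and ozone (2.50 ± 0.45) at day 4. Tyrobp, an adaptor of NK and myeloid cells, fell after co-exposure at day 1 (-0.69 ± 0.20) and rose after co-exposure (0.77) and ozone (0.69) at day 4.

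Of 8 tested cytokines and chemokines that attract or sustain these cells none passed at day 1 after co-exposure or ozone in edgeR, with 1 at an unadjusted p under 0.05 in each. At day 4, 2 rose and 2 fell after co-exposure and 1 rose and 1 fell after ozone. Over all genes at day 4, 17.7% rose and 16.3% fell after co-exposure, and 11.7% rose and 9.07% fell after ozone. Cxcl16, the ligand of Cxcr6, rose by 0.37 ± 0.11 after co-exposure and 0.42 ± 0.11 after ozone at day 4, Cx3cl1 (fractalkine) fell by 0.53 ± 0.14 and 0.40 ± 0.14, and Cxcl10, a ligand of Cxcr3, rose by 1.46 ± 0.40 after co-exposure. Il15, which sustains NK cells, had -0.50 ± 0.22 after co-exposure and -0.60 ± 0.23 after ozone at day 1. Of 7 receptors, S1pr1, which lets lymphocytes leave tissue and which endothelium carries in abundance, fell after co-exposure at day 1 (-0.59 ± 0.14) and after co-exposure (-1.32 ± 0.16) and ozone (-0.79 ± 0.16) at day 4.

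The comparisons of carbon black alone with sham asked whether the particle moved these genes without ozone. None of the 41 passed at day 1 in edgeR, DESeq2 or limma-voom, where 1.66% of all genes tested passed in either direction in edgeR, and 1 had an unadjusted p under 0.05 in edgeR, 1 in DESeq2 and 2 in limma-voom. None passed at day 4, where 0.208% of all genes passed, with 1 at an unadjusted p under 0.05 in edgeR, 1 in DESeq2, which gave no adjusted p for 19 of the 41, and 0 in limma-voom. Outside the 41, 1 further T gene and 3 further NK genes rose after carbon black at day 1: Lcp2 (0.81 ± 0.19), an adaptor of T and myeloid cells, Cd244a (1.59 ± 0.30), a receptor of NK and other leukocytes, Il18rap (1.17 ± 0.25), a chain of the interleukin 18 receptor, and Tyrobp (0.86 ± 0.19). No tested gene of those lists passed at day 4 in edgeR, with 2 T and 4 NK genes at an unadjusted p under 0.05. Over the 41, the T median was 0.03 at day 1 and 0.18 at day 4, and the NK median 0.11 and -0.11. Carbon black replicate 1 of day 4 had the highest T sum of all libraries, 286 CPM. Without it the day 4 T median was -0.16, and without sham replicate 2 the day 4 NK median was 0.07. The 95% intervals of the members' log2 fold changes reached from -1.06 to 1.54 at day 1 and from -1.17 to 1.65 at day 4, with a median half-width of 0.55 and 0.63, so that changes of the size seen after ozone lie within the intervals of the least precise members.

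The smallest p at day 1 of carbon black belonged to Il2rb. It had 23.7, 19.2, 16 and 17.9 CPM in carbon black libraries, against 12.4, 14.5, 13.2 and 10.8 CPM in sham libraries. All carbon black libraries lay above all sham libraries, at 0.60 ± 0.23 on the log2 scale with an edgeR adjusted p of 0.319. Neutrophil genes, 8 of 8, rose in the same comparison with a median of 4.27. Their sums were uneven, at 978, 128, 4379 and 2379 CPM in carbon black replicates 1 to 4, against 40.7 to 239 CPM in sham libraries. Replicate 2 thus lay inside the sham range. The part of neutrophils in the values of Il2rb, Lcp2, Cd244a, Il18rap and Tyrobp was not tested. Of T genes at day 1, Cd28 had 0.51 ± 0.29, Cd96 0.67 ± 0.42 and Tcf7 0.22 ± 0.15, and Cd3e had -0.27 ± 0.34. Of NK genes, Klre1 had 0.61 ± 0.36, Eomes 0.64 ± 0.42 and Ncr1 0.11 ± 0.32. At day 4 the smallest p was that of Cd2, with 32.7, 20.9 and 17.7 CPM in carbon black libraries, against 18.6, 18.7 and 14.5 CPM in sham libraries. Replicate 1 was high and replicates 2 and 3 were near or inside the sham range, at 0.44 ± 0.21. Cd3e had 11.5, 4.92 and 3.24 CPM in these libraries, against 3.01, 4.76 and 4.19 CPM in sham libraries, with a value of 0.68 ± 0.40, and Ncr1 had -0.30 ± 0.37. Ccl5 had 9.95, 9.02 and 9.19 CPM in carbon black libraries, against 11.8, 11.1 and 11.5 CPM in sham libraries, without overlap, at -0.29 ± 0.18 with an edgeR adjusted p of 0.451. Lat had -0.48 ± 0.24, Klrd1 -0.45 ± 0.33 and Nkg7 0.29 ± 0.26.

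Whether carbon black added to ozone was tested by setting co-exposed lungs directly against ozone lungs. No member passed at day 1 or at day 4 in edgeR, DESeq2 or limma-voom, and 0% of all 14887 genes passed at either day in edgeR. At an unadjusted p under 0.05 there were 5 members at day 1 and 5 at day 4 in edgeR, 4 and 4 in DESeq2, which gave no adjusted p for 29 members at day 4, and 3 and 4 in limma-voom. The T median was -0.21 at day 1 and -0.37 at day 4, and the NK median -0.33 and -0.06. Day 1 values with the smallest p were -0.68 ± 0.23 for Il7r and -0.88 ± 0.31 for Klrb1c. Klrb1c had 1.84, 1.97, 0.564 and 2.14 CPM in co-exposed libraries, against 4.05, 3.07, 2.35 and 2.66 CPM in ozone libraries, without overlap. Gzma (-0.56 ± 0.26), Prf1 (-0.67 ± 0.32) and Prkcq (-0.37 ± 0.15) followed, and Cd3e had -0.51 ± 0.40 and Ncr1 -0.59 ± 0.38.

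At day 4 Cd8b1 had 1.07, 1.7 and 0.576 CPM in co-exposed libraries, against 2.27, 2.82 and 2.87 CPM in ozone libraries. The groups did not overlap, with a log2 difference of -1.24 ± 0.40, a 95% interval from -2.07 to -0.41 and an edgeR adjusted p of 0.104. Cd28 (-1.12 ± 0.41), Tcf7 (-0.53 ± 0.18), Il2rb (-0.65 ± 0.30) and Prkcq (-0.38 ± 0.18) followed, and Cd3e had -0.53 ± 0.45 and Ncr1 0.12 ± 0.44. Without co-exposed replicate 1 of day 4, 3 members passed. The intervals of all members together reached from -1.66 to 1.06 at day 1 and from -2.17 to 1.54 at day 4. More members were called against sham after co-exposure than after ozone, and no member passed in the direct comparison of these exposures with all libraries in the fit.

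The interaction asked whether the effect of both exposures differed from the sum of the single effects on the log2 scale. No member passed in edgeR, DESeq2 or limma-voom at either day, where 1.46% of all genes passed at day 1 and 1.37% at day 4 in edgeR. Unadjusted p under 0.05 was found for 3 members at day 1 and 4 at day 4 in each of the 3 tools, and DESeq2 gave no adjusted p for 8 and 32 members. The values with the smallest p were -0.99 ± 0.34 for Il2rb, -1.10 ± 0.42 for Klrb1c and -0.79 ± 0.32 for Il7r at day 1, and -1.58 ± 0.53 for Cd28 (edgeR adjusted p = 0.0864) and -1.44 ± 0.52 for Cd8b1 (edgeR adjusted p = 0.105) at day 4. Cd3e had -0.25 ± 0.52 at day 1 and -1.20 ± 0.60 at day 4, and Ncr1 -0.70 ± 0.49 and 0.42 ± 0.58. At day 1, 1 member passed without co-exposed replicate 1, and at day 4 there was 1 without carbon black replicate 3 and 2 without co-exposed replicate 1.

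The difference between days was tested as the change over sham at day 4 minus the change over sham at day 1. No member passed for carbon black, ozone or co-exposure in edgeR, DESeq2 or limma-voom, where 0.094%, 4.24% and 10.2% of all genes passed in edgeR. At an unadjusted p under 0.05 there were 0, 1 and 2 members in edgeR, 0, 1 and 2 in DESeq2 (no adjusted p for 1 member under co-exposure) and 1, 1 and 2 in limma-voom. Cd2 had the smallest p for both ozone (0.63 ± 0.29) and co-exposure (0.66 ± 0.29), in the direction of a smaller fall at day 4, and the sham libraries are shared by these values. Tcf7 had -0.50 ± 0.24 for co-exposure and Eomes -1.18 ± 0.71 for ozone, in the direction of a lower level at day 4. Cd3e had 0.64 ± 0.55 for ozone and 0.63 ± 0.58 for co-exposure, and Ncr1 -0.66 ± 0.53 and 0.05 ± 0.54. The median half-width of the 95% intervals was 0.88 for ozone and 0.89 for co-exposure, so that calls made at 1 day and not at the other are not shown to differ between days.

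Between the sham groups of day 4 and day 1 no member passed in edgeR, DESeq2 or limma-voom, and 0% of all genes passed in edgeR. At an unadjusted p under 0.05 there was 1 member in edgeR, 1 in DESeq2 and 2 in limma-voom. Prf1 had -0.74 ± 0.31, Cd3e -0.59 ± 0.37 and Ncr1 0.19 ± 0.34. Over the sham libraries of both days, a member's coefficient of variation had a median of 22% for T genes and 29.3% for NK genes. This spread includes any difference between the sham groups of day 1 and day 4.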

How the data were processed

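Gene counts were measured in 28 mouse lung libraries and deposited by the authors as a table of estimated counts per gene, without normalization, made with Salmon 1.1.0 in mapping-based mode per the labels. The submitters' processing notes also name mm10, R 3.6.3 and DESeq2, without their roles. The sources used here do not say how transcripts were summed to genes. The estimated counts, 17.7% of them not whole (tolerance 1e-06), were rounded. Symbols came from GENCODE M21 (GRCm38, the assembly of mm10), which named 35505 of 35880 identifiers, with 375 unnamed and 11799 without a count. Libraries were grouped by title.

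Tests used edgeR 4.0.16 in R 4.3.3 (robust quasi-likelihood F test, TMM factors of 0.902 to 1.05, filterByExpr with a minimum count of 10, 14887 genes, 8 group means, 20 residual degrees of freedom), with Benjamini-Hochberg adjustment over all genes tested and a threshold of 0.05. DESeq2 1.42.0, limma 3.58.1 (voom), median-of-ratios scaling, other filters, other samples, a replicate block and leaving out each library were alternatives. The fits were tested on simulated data. Intervals are 95% intervals of the fit. Replicates differed beyond sampling noise, with a chi-square per gene of at least 4.18. Replicate numbers are taken as possibly pairing co-exposed and sham libraries of day 4, from the data and not the labels. The correlation of deviations from the group mean was over 0.1 there for 3 of 3 same-numbered pairs (0.153 to 0.352). Other pairs of these libraries had -0.274 to 0.023. That pair of groups was picked from all pairs on the same data, so a call under its block is not independent of the choice. The members, role lists and other lists were chosen with earlier results of these data known. In each comparison with an exposure, up to 5 T and 5 NK members were named by smallest p, with Cd3e and Ncr1 always named, and every other member was accounted for; Tyrobp, Lcp2, Cd244a, Il18rap and Cxcl13 were added after their values were seen. Other lists that are described are given by counts, medians, sums or single genes, and not by all of these for each list. Of the receptor list only S1pr1 is described. Promoter windows are RefSeq sequences of GRCm38.p6, credited to that table. Reads without molecular identifiers are not independent molecules.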

Additional observations from a re-analysis of the deposited data

Results flagged for a closer look

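Groups of 4 libraries were searched for a library that stood apart, where the gap to its nearest neighbour exceeded 0.829 of the group's range (Dixon's criterion). Of 92 groups of a named member 7 met it, and chance gives about 1 in 20. Co-exposed replicate 3 of day 1 was low for Gzma, at 3.39 CPM, and for Nkg7, at 1.83 CPM. Ozone replicate 1 of day 1 was high for Klrk1, at 4.56 CPM, and for Lat, at 3.21 CPM. Carbon black replicate 3 of day 1 was low for Gzmb, at 2.35 CPM. Sham replicate 2 of day 1, one of the libraries high in Acta1, was high for Il7r, at 16.8 CPM, and sham replicate 4 of day 1 was low for Tcf7, at 25.4 CPM. Values of all libraries of Gzma, Nkg7, Klrk1, Lat, Il7r and Tcf7 in the co-exposed, ozone and sham groups are given above; the other carbon black libraries of Gzmb at day 1 were at 4.12, 4.08 and 4.33 CPM.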

How the results depend on the processing

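Leaving out each library in turn gave counts of fallen members of 23 to 31 after co-exposure and 12 to 24 after ozone at day 1, and 21 to 29 after co-exposure and 8 to 15 after ozone at day 4. It gave 0 to 3 for co-exposure against ozone at day 4, and 0 to 1 and 0 to 2 for the interactions of day 1 and day 4. Over those fits the T median of carbon black at day 4 ran from -0.16 to 0.23 and its NK median from -0.21 to 0.07, and the NK median of co-exposure at day 4 ran from -1.37 to -0.96. Without the libraries high in Acta1 the day 1 ozone count was 9 and its NK median -0.69, and the NK median of co-exposure at day 4 was -0.96; the cause was not tested, and these fits hold fewer samples. With the fit limited to the groups compared, counts were 29 after co-exposure and 24 after ozone at day 1, and 24 after co-exposure and 24 after ozone at day 4. For co-exposure at day 4, Cd3e was gained in that fit. Members that lost the call there include Lat, Skap1, Prf1, Nkg7, Klrb1c, Klre1 and Tbx21, with edgeR adjusted p between 0.0522 and 0.0936. Of 47 named member and comparison pairs, 44 passed; 0 turned sign under any alternative, 7 lost the call when a library was left out and 6 under another setting. Replicate numbers are shared by the groups. Only between co-exposed and sham libraries of day 4 were all same-numbered pairs correlated over 0.1. Ozone and sham libraries of day 1 had 3 of 4 (0.057 to 0.373), and over all pairs of groups 12 of 42 were (-0.250 to 0.479). Missing this cutoff does not show that libraries are unpaired, so elsewhere a pairing is not established. The fit with a replicate block gave 32 after co-exposure and 21 after ozone at day 1, and 33 after co-exposure and 18 after ozone at day 4, with 0 in the other comparisons; Cd3e and Cd3g then passed after co-exposure at day 4. A block within the co-exposed and sham libraries of day 4 alone, added after seeing the data, gave 29, against 31 in the main fit. Cd3e was gained and Skap1 and Nkg7 were lost, which does not account for the whole difference. Members with a few counts per library allow only a coarse value.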
